A study of Mus musculus with 36 samples.

Results

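Dlx1, Dlx2, Dlx5, Dlx6, Gsx2, Nkx2-1, Lhx6, Gad1 and Gad2, genes of ventral forebrain progenitors and of the interneurons they give rise to, were examined for 3 histone marks. They were chosen by name, for their known place in the ventral telencephalon and the GABAergic lineage, but with earlier results of these data known. All 9 were found among 21911 protein-coding genes of the mouse genome (build mm10, GENCODE vM21). Dlx1 lies 18.6 kb from Dlx2 (gene start to gene start) and Dlx5 lies 18.8 kb from Dlx6, so the 9 genes sit at 7 loci. ChIP-seq was done for H2AK119ub1, H3K27me3 and H3K36me2 on hippocampus of postnatal day 0 and on neurospheres, floating cultures of progenitors grown for 3 generations from hippocampi of that age. In the cKO mice (Kdm2bEmx1-delta-CxxC), Emx1-Cre removed exon 13 of Kdm2b, which encodes the CxxC zinc finger that binds CpG-rich DNA. The Ctrl mice were labelled Kdm2bfl/+ or Kdm2bfl/fl, without saying which of these each library came from, so the controls carry at least 1 floxed allele. Each mark, source and genotype had 2 libraries, 24 in all, and nothing in the labels says whether they came from separate animals. P-values therefore measure only the spread between these libraries, which may be technical.

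In the embryonic forebrain, interneurons arise in the ganglionic eminences of the ventral telencephalon and migrate into the cortex and hippocampus. Gsx2 patterns the progenitors there, the Dlx homeobox factors act below it, Nkx2-1 specifies the medial ganglionic eminence and Lhx6 acts downstream of Nkx2-1 in the interneurons it produces. Gad1 and Gad2 encode the enzymes that make GABA. Emx1-Cre is active in the dorsal (pallial) lineage, in which the ventral genes are normally silent, while interneurons that have migrated in come from outside that lineage. Polycomb complexes hold developmental genes of other lineages silent: PRC1 ubiquitylates a lysine of H2A, PRC2 trimethylates H3 at lysine 27, and KDM2B brings a form of PRC1 to CpG islands. H3K36me2 is removed by the demethylase domain of the long KDM2B isoform.

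The CpG sites that a CxxC domain can bind are dense at most of these gene starts. In the 1 kb around the start, 7 of the 9 genes were CpG-rich (GC above 50%, CpG ratio of observed over expected above 0.6), against 44.4% of all 21911 promoters. The other two were Dlx1, with 44.5% GC and a ratio of 0.637, and Gad1, with 44.3% GC and a ratio of 0.249. The RefSeq window of Dlx1 lies further inside the gene, at chr2:71529195-71529494, and has 69.3% GC and 27 CGs, reached by 15.5% of windows. RefSeq promoter windows (GRCm38.p6, 250 bases before to 50 after a start) were found for 7 of the 9 genes, all but Dlx5 and Dlx6. 4 of them are shown because the results below turn on these loci, with each CG dinucleotide in capitals; the same letters read CG on both strands. A CG was found in 94.6% of the 32851 windows in the RefSeq set, at a median of 7 per window. The Dlx2 window (chr2:71546705-71547004, minus strand) held 29 CGs, a number reached by 12.9% of all windows. The Gsx2 window (chr5:75075351-75075650, plus strand) held 17, reached by 31.4%. The Gad2 window (chr2:22622077-22622376, plus strand) held 14, reached by 36.3%. The Gad1 window (chr2:70561879-70562178, plus strand) held 21, reached by 24.8%.
Dlx2: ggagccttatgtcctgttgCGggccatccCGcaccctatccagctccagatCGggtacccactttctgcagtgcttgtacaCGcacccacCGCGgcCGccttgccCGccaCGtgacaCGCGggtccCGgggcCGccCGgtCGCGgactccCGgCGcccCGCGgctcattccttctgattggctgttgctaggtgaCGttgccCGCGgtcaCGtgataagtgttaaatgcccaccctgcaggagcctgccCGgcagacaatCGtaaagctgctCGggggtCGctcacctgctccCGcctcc
Gsx2: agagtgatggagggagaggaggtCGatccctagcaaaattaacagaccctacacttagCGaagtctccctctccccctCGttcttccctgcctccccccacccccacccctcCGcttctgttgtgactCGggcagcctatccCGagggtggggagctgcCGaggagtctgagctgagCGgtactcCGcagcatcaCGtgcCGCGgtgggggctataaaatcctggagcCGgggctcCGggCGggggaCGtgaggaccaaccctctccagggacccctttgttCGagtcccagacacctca
Gad2: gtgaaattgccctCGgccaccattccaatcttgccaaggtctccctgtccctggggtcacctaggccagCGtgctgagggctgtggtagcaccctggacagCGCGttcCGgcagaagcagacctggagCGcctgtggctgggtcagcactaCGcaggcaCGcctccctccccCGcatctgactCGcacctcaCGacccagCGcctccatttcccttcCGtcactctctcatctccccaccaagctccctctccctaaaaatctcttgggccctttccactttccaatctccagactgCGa
Gad1: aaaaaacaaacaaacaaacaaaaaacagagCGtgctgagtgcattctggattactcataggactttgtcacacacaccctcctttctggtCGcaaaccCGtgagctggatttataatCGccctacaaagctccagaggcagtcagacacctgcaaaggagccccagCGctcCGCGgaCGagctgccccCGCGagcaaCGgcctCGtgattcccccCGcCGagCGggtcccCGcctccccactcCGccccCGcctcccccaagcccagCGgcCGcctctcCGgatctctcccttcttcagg
The Gad1 window lies at the start of the transcript with the longest coding sequence, 8970 bp inside the annotated gene, whose own start is at position 70553072. Values for Gad1 are given at both starts.

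The authors called islands, broad stretches with more reads than expected over input DNA, in each library separately, and deposited each island with its read count. A promoter was the 2 kb on each side of the gene start, and its coverage was the share of those bases inside islands. The libraries held 12205 to 148994 islands, covering 37.3 to 497 Mb and holding 987329 to 22021439 reads. Positions outside islands carry no count, so the full depth of a library is unknown here and a promoter without an island is not a promoter without the mark. H2AK119ub1 in hippocampus differed widely between libraries of a group. Its Ctrl 1 and cKO 1 libraries had an island at 6.08% and 3.94% of all promoters, against 17.1% and 24.3% in Ctrl 2 and cKO 2. The targeted exon leaves no trace in island files, so the deletion itself could not be seen in these data.

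H3K27me3 covered most of the ventral promoters completely in both sources. At 8 of the 9 gene starts, all but Gad1, at least 50% of the promoter was covered in all 4 hippocampus libraries and in all 4 neurosphere libraries. Over all promoters that share was 5.71% in hippocampus and 10.5% in neurospheres. Dlx1, Dlx5, Dlx6, Gsx2, Nkx2-1 and Lhx6 were covered over 100% in all 8 libraries of the mark. The median coverage of the 9 promoters was 100% in both genotypes and both sources, while the median over all promoters was 0%. The gene bodies of Dlx1, Dlx2, Dlx5, Dlx6 and Gsx2 were also covered over 100% in all 8 libraries. The longer genes were covered in part. The gene body of Gad2 was covered over 25.7% and 9.48% in hippocampus Ctrl and 32.6% and 11.7% in hippocampus cKO, and over 6.41% and 8.65% in neurosphere Ctrl and 3.06% and 7.53% in neurosphere cKO. That of Lhx6 was covered over 66.5% to 81.9% in hippocampus and 100% in neurospheres.

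**Figure D1:**
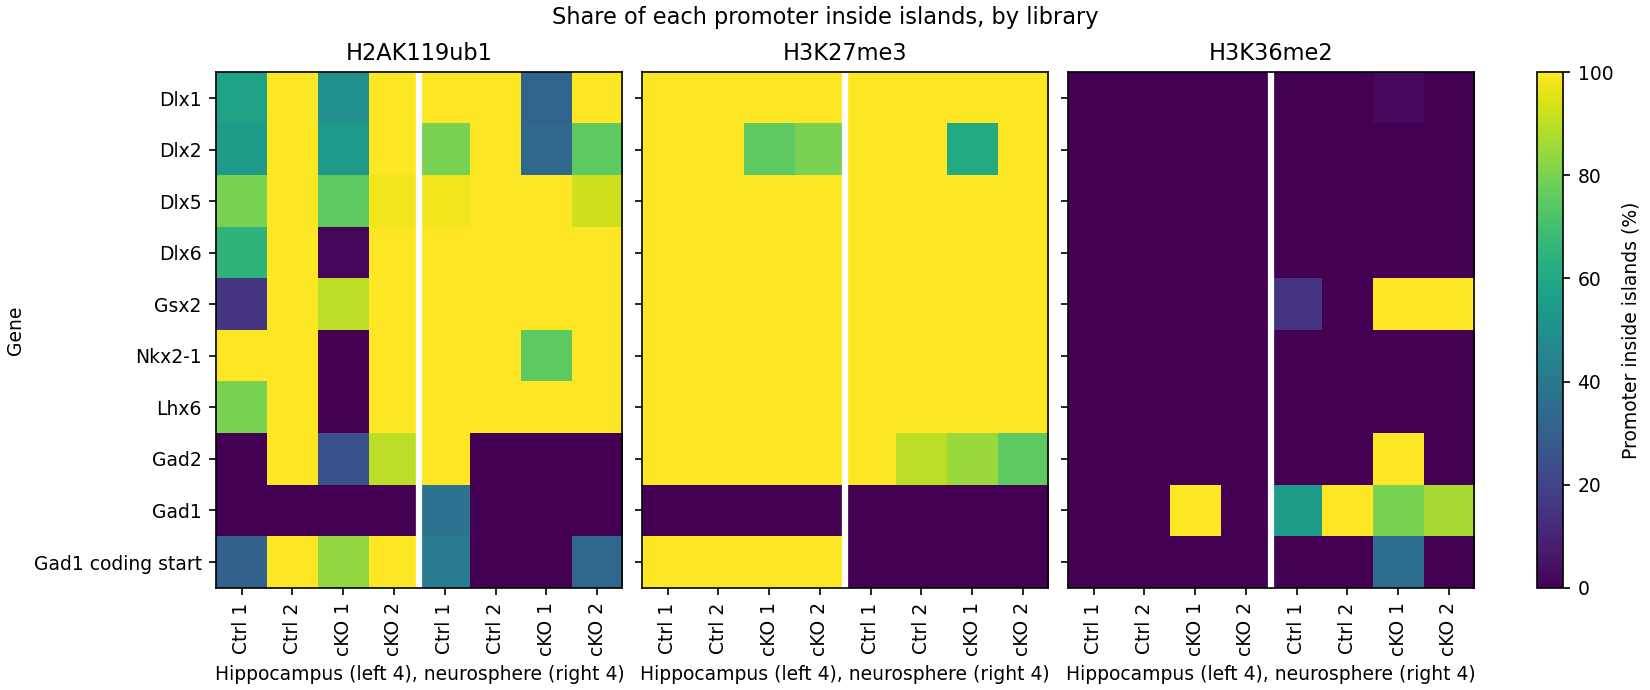
Share of each promoter (2 kb on each side of the gene start) inside islands, in percent by colour, for the 9 genes and the second start of Gad1 (rows) in each library (columns), for the 3 marks. H3K27me3 covers 100% of the promoters of Dlx1, Dlx5, Dlx6, Gsx2, Nkx2-1 and Lhx6 in all 8 libraries, H2AK119ub1 differs between hippocampus libraries of the same genotype, and Gsx2 has 100% H3K36me2 coverage in both neurosphere cKO libraries.

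Gad1 was the exception, and its H3K27me3 differed between sources. At the annotated gene start no library of the mark had an island. At the coding start, the promoter was covered over 100% in all 4 hippocampus libraries and over 0% in all 4 neurosphere libraries. The hippocampus islands there measured 16 and 16.8 kb (Ctrl) against 15.8 and 20.2 kb (cKO). Over the gene body, H3K27me3 covered 32.7% and 34.3% in hippocampus Ctrl and 40.5% and 47.4% in hippocampus cKO, against 0% in every neurosphere library. The difference was not particular to Gad1. Olig2, from the 40 other ventral and GABAergic genes read below, had 100% promoter coverage in every hippocampus library and 0% in every neurosphere library. The share of all promoters that differ so was not counted. The Gad1 region was not tested between sources, since it lacked an island in some libraries. Gad2, the other GABA enzyme, kept an island in all 8 libraries. Its promoter coverage was 100% in the 4 hippocampus libraries, and 100% and 90.1% in neurosphere Ctrl and 85.1% and 75.1% in neurosphere cKO.

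Promoter coverage by H3K27me3 was lower in both cKO than in both Ctrl libraries for 1 of the 9 genes in each source. In hippocampus that gene was Dlx2, a homeobox factor needed for interneuron migration, with 100% and 100% in Ctrl against 75.0% and 80.0% in cKO. In neurospheres it was Gad2, with the values above, whose mean was 95.1% ± 7.0 (SD, n = 2) for Ctrl against 80.1% ± 7.07 for cKO. Each gave p = 0.333 in a two-sided exact permutation test, the smallest that 2 libraries against 2 can give. Among promoters with an island in any of the 4 libraries, 2.58% were lower without overlap in hippocampus cKO and 11.8% were higher, and 13.3% were lower and 8.54% higher in neurosphere cKO. No ventral gene was higher without overlap in either source.

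The H3K27me3 gaps at Dlx2 began within 200 bp of one another. They were singled out after their values were seen. In hippocampus cKO 1 the H3K27me3 gap ran from position 71547201 to 71548200 of chromosome 2, which is -1446 to -447 bp from the gene start. In hippocampus cKO 2 it ran from 71547401 to 71548200. In neurosphere cKO 1 coverage was 61.2%, and the uncovered part ran from 71547201 to the end of the promoter window. The neurosphere cKO 2 library and all 4 Ctrl libraries had no gap there. For H2AK119ub1, the stretch from 71547201 to 71548000 was also uncovered in neurosphere Ctrl 1, and that from 71547201 to 71548200 in neurosphere cKO 2. The other H2AK119ub1 gaps lay nearer the gene start or inside the gene. Hippocampus Ctrl 1 was uncovered from 71545201 to 71547000, hippocampus cKO 1 from the end of the promoter window inside the gene to 71546600, and neurosphere cKO 1 from that end to 71547400. The printed Dlx2 window was covered by H3K27me3 in all 8 libraries. For H2AK119ub1, 300 of its 300 bases were uncovered in neurosphere cKO 1 and 296 in hippocampus Ctrl 1.

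The H3K27me3 island at the gene start was wide at the transcription factor genes and narrower at Gad2. In hippocampus the island at Dlx1 and Dlx2 was 42 and 37.6 kb wide in Ctrl against 32.6 kb wide in both cKO libraries, where the gap at Dlx2 split it. In hippocampus Ctrl that at Dlx5 and Dlx6 was 45.4 and 35.6 kb, and that at Gad2 was 17.4 and 12.2 kb. At Nkx2-1 it was 136 kb in Ctrl 1 and 41.0 kb in Ctrl 2, against 128 and 118 kb in cKO. In neurospheres the Gad2 island spanned 8.6 and 5.0 kb for Ctrl against 3.6 and 6.4 kb for cKO, below each of the 4 hippocampus libraries. How many of all promoters differ so in island width between the sources was not counted. The Gsx2 island was 34.6 and 22.4 kb in neurosphere Ctrl and 21.4 and 11.8 kb in neurosphere cKO. At Dlx5 it was 52.6 and 22.6 kb in neurosphere Ctrl against 63.0 and 113 kb in neurosphere cKO, so there the cKO islands were the wider ones.

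**Figure D2:**
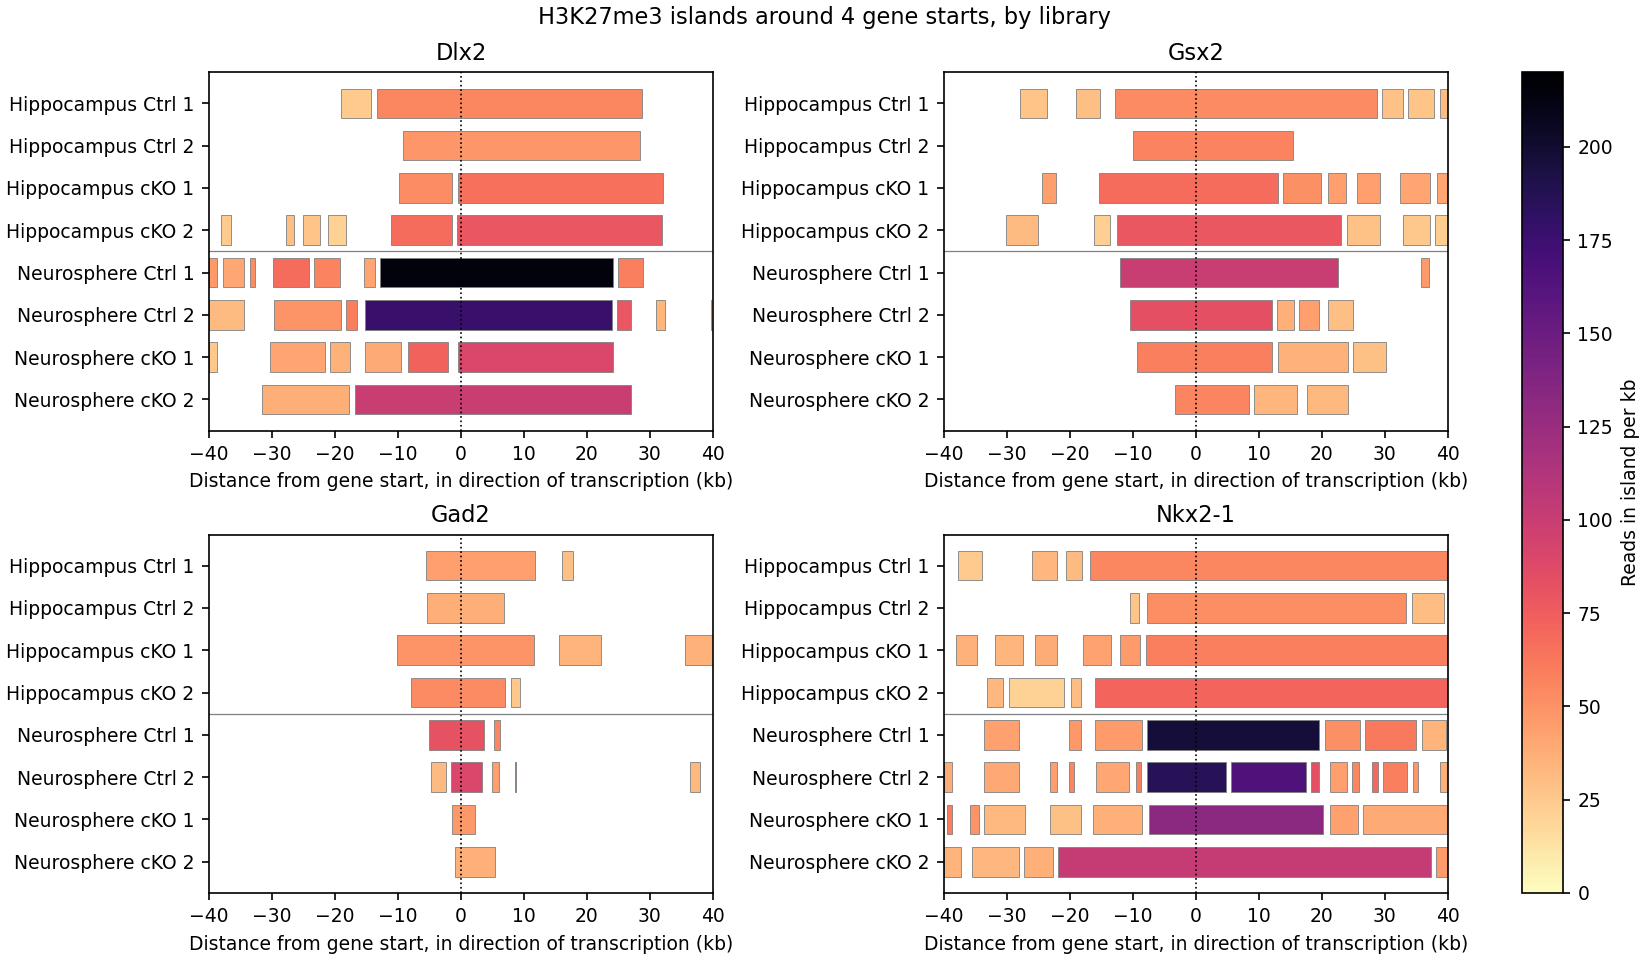
H3K27me3 islands within 40 kb of the gene starts of Dlx2, Gsx2, Gad2 and Nkx2-1, as distance from the start in kb (horizontal axis), 1 row for each of the 8 libraries, coloured by reads per kb of the island. The 2 neurosphere Ctrl rows hold the darkest islands at Dlx2 (215 and 178 reads per kb at the start). Of the islands at the gene starts, those of Gad2 are the narrowest in each library, down to 3.6 kb in neurosphere cKO 1.

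Read density within islands set the loci apart in neurospheres. It is the read count of the island at the gene start divided by its width, and it is not corrected for library depth. In neurosphere Ctrl the H3K27me3 density at Dlx1 and Dlx2 was 196 reads per kb ± 26.1 (SD, n = 2), followed by Nkx2-1 with 192 ± 8.23, Dlx6 with 159 ± 17.1, Dlx5 with 157 ± 20.5 and Lhx6 with 140 ± 4.75. Gsx2 had 91.9 ± 11.9 and Gad2 had 85.8 ± 5.70 reads per kb. The libraries of Dlx1 overlapped those of Nkx2-1, those of Lhx6 overlapped those of Dlx5, and those of Gsx2 overlapped those of Gad2. Nkx2-1 lay above Dlx6, and Lhx6 above Gsx2, in both Ctrl libraries of each. All of these exceeded the median over 3396 promoters with an island in all 4 libraries, 64.2 and 53.5 reads per kb in the Ctrl libraries. In hippocampus Ctrl the range was narrower, from 40.8 ± 4.62 at Gad2 to 60.1 ± 3.35 reads per kb at Lhx6.

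The density was lower in neurosphere cKO at every ventral gene with an H3K27me3 island, and higher in hippocampus cKO, in step with other promoters. At Dlx1 and Dlx2, which share an island, it was 215 and 178 reads per kb in neurosphere Ctrl and 89.9 and 99.7 in neurosphere cKO. At Gad2 it was 81.7 and 89.8 in Ctrl against 48.1 and 36.9 in cKO. At Nkx2-1 it was 198 and 186 in Ctrl against 133 and 102 in cKO. The groups did not overlap for any of the 8 genes. This was so for 69.8% of the 3396 promoters, with 0.559% higher without overlap, so the direction was that of most promoters. In hippocampus all 8 genes were higher without overlap in cKO, for example 55.1 and 48.8 reads per kb in Ctrl against 65.7 and 79.5 in cKO at Dlx1. There 78% of 1833 promoters were higher and 0.109% lower. The size of the difference varied among the genes. In neurospheres the cKO mean was 0.483 of the Ctrl mean at Dlx1, 0.495 at Gad2, 0.605 at Dlx5, 0.612 at Nkx2-1, 0.623 at Gsx2 and 0.725 at Lhx6.

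**Figure D3:**
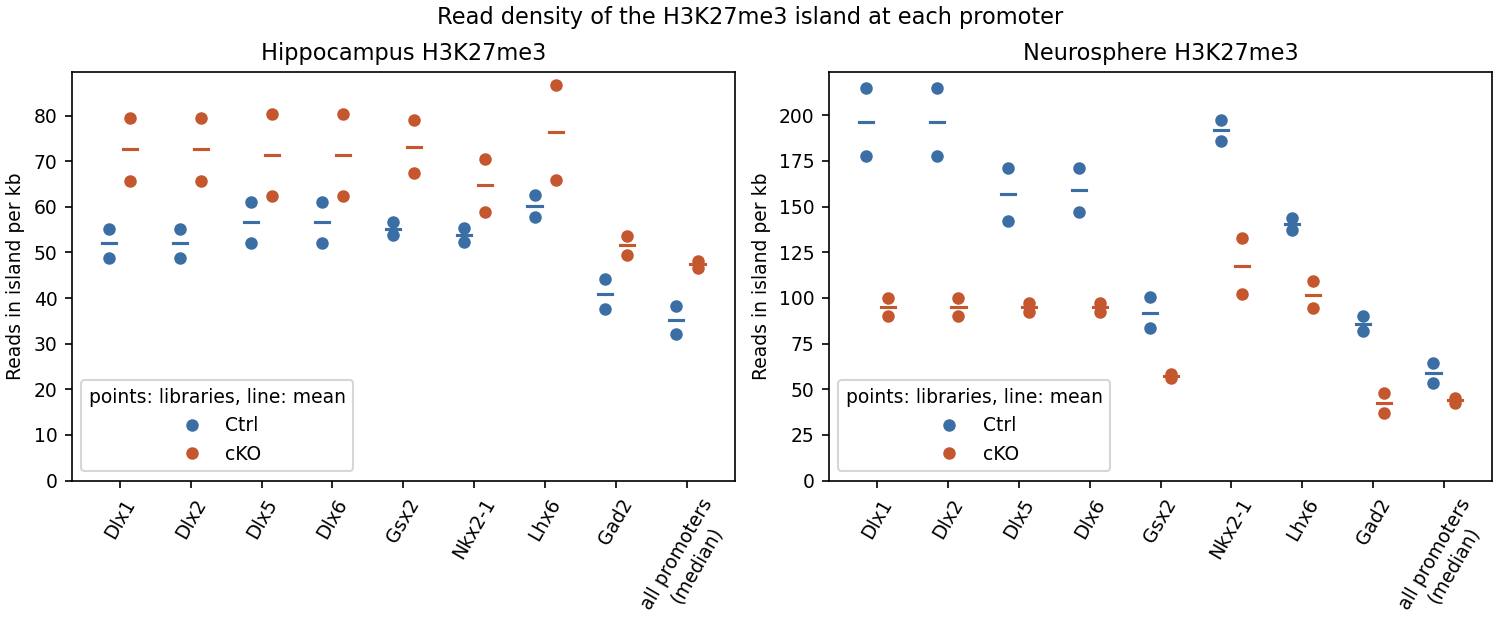
Reads per kb in the H3K27me3 island at each promoter (vertical axis) in hippocampus (left) and neurospheres (right), points for single libraries and lines for the mean of 2, with the median over all promoters with an island in all 4 libraries at the far right. In neurospheres the cKO points lie below the Ctrl points at every gene, widest apart at Dlx1 and Dlx2, and in hippocampus they lie above.

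A test that scales the libraries to one another was then made on regions. Islands of the 4 libraries were merged where they overlapped or touched, reads were summed per region, and regions with an island in all 4 libraries were tested with edgeR. Library size here means the reads in the tested regions, since full depth is unknown. The scaling sets most regions near no change, so a shift shared by most regions would be removed. For H3K27me3 the median log2 fold change over all tested regions was 0.0144 in neurospheres and -0.0184 in hippocampus. Fold changes are therefore relative to other regions. A fold change of a region joins a change in covered length with a change in density. The 8 genes with H3K27me3 in neurospheres fell into 6 regions, none of which held the start of another protein-coding gene. At Gad2 the region (chr2:22617201-22628400) held 758 and 569 reads in Ctrl against 173 and 236 in cKO, a log2 fold change of -1.69 (SE 0.301, adjusted p = 0.175 by edgeR with Benjamini-Hochberg adjustment). At Dlx1 and Dlx2 the region (chr2:71517801-71578400) held 8877 and 7771 reads in Ctrl against 3378 and 4883 in cKO, a log2 fold change of -1.02 (SE 0.212, adjusted p = 0.175 by edgeR). At Gsx2 the region (chr5:75063601-75105800) held 3471 and 2233 reads in Ctrl against 1797 and 1109 in cKO, a log2 fold change of -0.93 (SE 0.313, adjusted p = 0.242 by edgeR). In each of these 3 regions both cKO libraries held fewer reads than both Ctrl libraries. These reads are not scaled, and all islands of the mark held 17025504 and 14008986 reads in neurosphere Ctrl against 13195590 and 13502744 in neurosphere cKO. The share of all regions with this order of reads was not counted.

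None of the 6 regions passed an adjusted p of 0.05 in edgeR, nor did any of the 11262 regions tested for this mark in neurospheres (0%). At an unadjusted p under 0.05, 2077 of the 11262 were called, 1007 of them (8.94%) lower in cKO, and 3 of the 6 ventral regions were among these (Gad2, Dlx1 and Dlx2, and Gsx2). The other ventral regions had log2 fold changes of -0.36 (SE 0.146) at Lhx6, 0.07 (SE 0.185) at Nkx2-1 and 0.00086 (SE 0.179) at Dlx5 and Dlx6. The Dlx5 and Dlx6 region held 11768 and 8421 reads in Ctrl against 8364 and 11691 in cKO, so here the groups overlapped.

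The call at Dlx1, Dlx2 and Gsx2 depended on how counts were scaled. With the covered length of each region and library as an offset, so that reads per kb were compared after scaling for library size, the log2 fold change was -0.73 (SE 0.111, adjusted p = 0.00118 by edgeR) at Dlx1 and Dlx2. It was -0.58 (SE 0.114, adjusted p = 0.00824 by edgeR) at Gsx2 and -0.52 (SE 0.149, adjusted p = 0.0737 by edgeR) at Gad2. In that fit 243 of 11262 regions (2.16%) were called lower in cKO, 2 of the 6 ventral regions among them. With the Wald test of DESeq2 on the counts, 247 regions (2.19%) were called lower, among them Gad2 (log2 fold change -1.68, adjusted p = 0.000676 by DESeq2) and the Dlx1 and Dlx2 region (log2 fold change -1.01, adjusted p = 0.0379 by DESeq2). The Dlx1 and Dlx2 region thus passed in both of these fits and in neither fit did Dlx5 and Dlx6, Nkx2-1 or Lhx6. Leaving out neurosphere cKO 1 gave 3 calls of 6 in the edgeR fit on counts (Gad2, Dlx1 and Dlx2, Gsx2), with a log2 fold change of -1.60 at Gsx2, and leaving out any other library gave 0. In the fit without cKO 1, calls were more frequent over all regions too, with 12.7% of 16288 called lower in cKO.

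**Figure D4:**
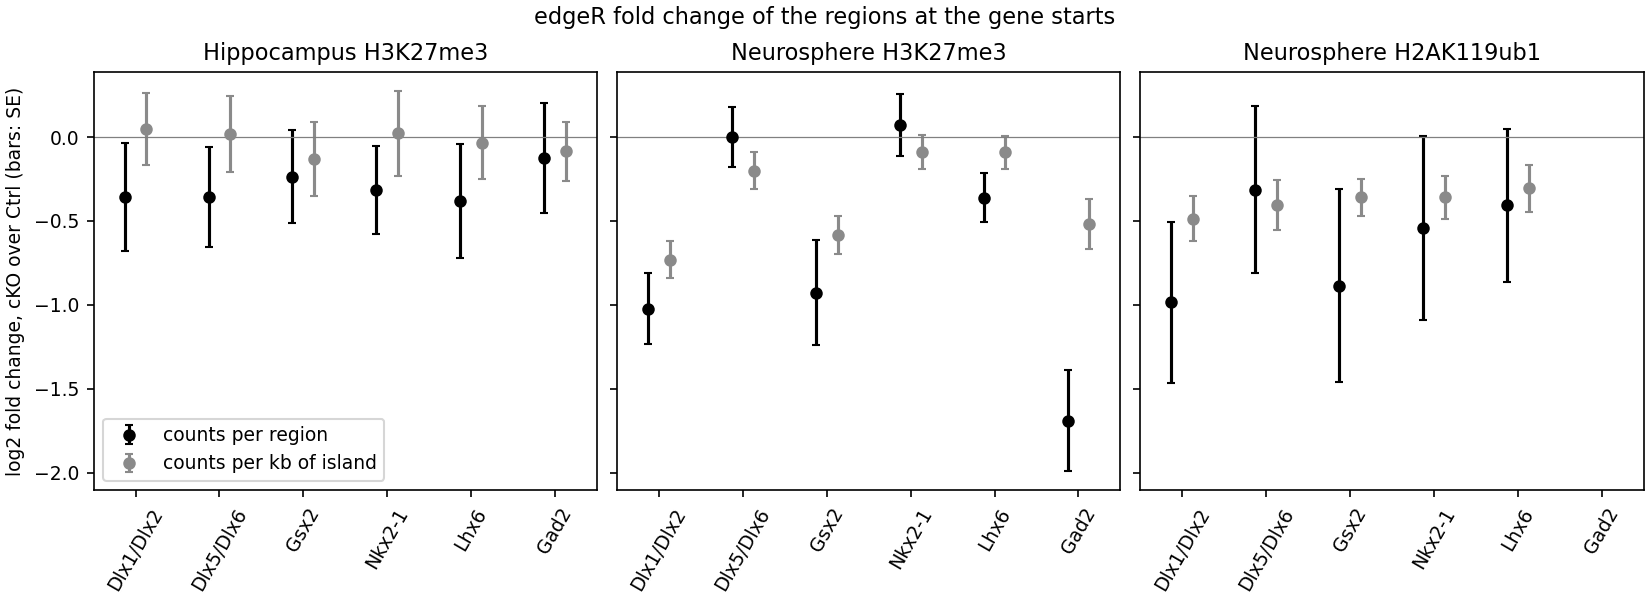
log2 fold change of cKO over Ctrl by edgeR (vertical axis, bars show the SE) for the regions at the ventral gene starts, black for counts per region and grey for counts per kb of island, in 3 comparisons. In neurosphere H3K27me3 the Dlx1/Dlx2 region, Gsx2 and Gad2 lie below 0 in both fits, at -1.02, -0.93 and -1.69 for counts per region; Gad2 had no neurosphere H2AK119ub1 region to test.

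In hippocampus, relative to other regions, the H3K27me3 regions of the ventral genes did not differ between genotypes beyond the spread between libraries. The 6 log2 fold changes ranged from -0.38 (SE 0.339) at Lhx6 to -0.13 (SE 0.328) at Gad2, each with an adjusted p of 0.994 by edgeR. None of 4387 regions passed in edgeR (0%), 155 of them had an unadjusted p under 0.05, and the DESeq2 Wald test called 3. With the length offset, the values at Dlx1 and Dlx2, Dlx5 and Dlx6, and Nkx2-1 lay above 0, at up to 0.049, so their sign depended on the scaling. At the coding start of Gad1 the region held 835 and 720 reads in Ctrl against 1168 and 1351 in cKO, a log2 fold change of -0.17 (SE 0.362) after scaling. The change of the cKO effect between sources was tested as an interaction over the 8 libraries of the mark. None of 2373 regions passed (0%), with 258 at an unadjusted p under 0.05. The lowest p among the ventral regions was at Gad2, with an interaction of -1.22 on the log2 scale (SE 0.497, adjusted p = 0.432 by edgeR).

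H2AK119ub1 covered the same genes but less evenly. In neurospheres 5 of the 9 promoters were at least 50% covered in all 4 libraries (Dlx5, Dlx6, Lhx6, Nkx2-1 and Gsx2), against 3.58% of all promoters. In hippocampus these were 3 of 9 (Dlx1, Dlx2 and Dlx5), against 0.475%. The hippocampus values split by library more than by genotype. Coverage of the Nkx2-1 promoter was 100% and 100% in Ctrl against 0% and 100% in cKO, and that of Lhx6 was 80.0% and 100% in Ctrl against 0% and 100% in cKO. At Gsx2 it was Ctrl 1 that was low, with 15% and 100% in Ctrl against 90% and 100% in cKO. The mean over the 9 promoters was 50.3% in Ctrl 1 and 32.8% in cKO 1, against 88.9% in Ctrl 2 and 87.6% in cKO 2, and the low pair were the libraries with the least covered length for this mark. No promoter of the 9 was lower or higher without overlap in hippocampus cKO, where 1.7% and 2.04% of promoters with an island in any library were.

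In neurospheres Dlx2 was the gene with lower H2AK119ub1 coverage in both cKO libraries, 33.9% and 75.0%, than in both Ctrl libraries, 80.0% and 100%. The p was 0.333 in the two-sided exact permutation test. Among all promoters with an island in any library, 7.78% were lower and 4.41% higher without overlap. Dlx1 had 100% and 100% in Ctrl against 32.2% and 100% in cKO, so neurosphere cKO 1 was low at both genes. Gad2 had 100% in neurosphere Ctrl 1 and 0% in the other 3 neurosphere libraries, and the Gad1 gene start had 38.2% in Ctrl 1 and 0% in the other 3. The mean over the 9 promoters was 90.7% and 77.8% in Ctrl against 60.1% and 74.2% in cKO, while the mean over all promoters was 28.4% and 9.12% in Ctrl against 11.8% and 23.2% in cKO.

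The read density of H2AK119ub1 at the ventral genes was lower in both neurosphere cKO libraries at 6 of the 7 genes with an island in all 4. At Dlx1 it was 124 and 63.2 reads per kb in Ctrl against 42.7 and 55.2 in cKO, and at Gsx2 it was 70.0 and 44.7 in Ctrl against 32.2 and 32.3 in cKO. Nkx2-1 overlapped, with 127 and 58.7 in Ctrl against 33.3 and 59.5 in cKO. Of 1472 promoters, 64.9% were lower and 0.136% higher without overlap, so most promoters moved the same way. In the edgeR test the 5 ventral regions had log2 fold changes from -0.99 (SE 0.480) at Dlx1 and Dlx2 to -0.31 (SE 0.498) at Dlx5 and Dlx6, with adjusted p = 1.00 in each. None of 6060 regions passed in edgeR (0%), with 101 at an unadjusted p under 0.05, and the DESeq2 Wald test called 32. Without neurosphere Ctrl 1 the Dlx1 and Dlx2 region passed, at -1.05 (adjusted p = 0.000934 by edgeR), and in that fit 0.823% of 6680 regions were called lower. In hippocampus the 5 regions ranged from -0.71 (SE 0.522) at Nkx2-1 to 0.08 (SE 0.508) at Gsx2, with 0.73 (SE 0.641) at the coding start of Gad1. None of 2750 regions passed in edgeR (0%), with 30 at an unadjusted p under 0.05, and DESeq2 called 0. The interaction between sources called none of 1555 regions (0%), with 22 at an unadjusted p under 0.05.

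H3K36me2 was nearly absent from the island files at these genes in hippocampus. The Gad1 gene start was covered over 100% in cKO 1, by an island of 153 reads over 5.80 kb, and the other 8 promoters had no island in any of the 4 hippocampus libraries. No ventral promoter was at least 50% covered in all 4, against 0.0958% of all promoters, and none was lower or higher without overlap in cKO, against 4.18% and 7.53% of promoters with an island in any library. In neurospheres the Gad1 gene start was covered over 55.0% and 100% in Ctrl against 80.0% and 86.8% in cKO, the single ventral gene at 50% or more in all 4 libraries, where 1.27% of all promoters were. Its region held 333 and 429 reads in Ctrl against 400 and 252 in cKO, a log2 fold change of 0.15 (SE 0.337, adjusted p = 0.963 by edgeR). The coding start of Gad1 had an H3K36me2 island in neurosphere cKO 1 alone, over 36% of the window.

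Gsx2, a factor that patterns ventral progenitors, was the one ventral gene whose promoter had higher H3K36me2 coverage in both neurosphere cKO libraries. Its promoter was covered over 15% and 0% in Ctrl against 100% and 100% in cKO, and its gene body over 0% and 0% in Ctrl against 100% and 100% in cKO. The exact permutation p was 0.333 (two-sided, n = 2 and 2). The islands were 6 kb wide in both cKO libraries, with 230 and 169 reads, against an island of 2 kb and 107 reads at the edge of the promoter in Ctrl 1. Their density went the other way, at 38.3 and 28.2 reads per kb in cKO against 53.5 in Ctrl 1, not corrected for library depth. H3K27me3 islands covered the same promoter over 100% in all 4 neurosphere libraries. Over all promoters with an H3K36me2 island in any library, 4.23% were higher and 5.61% lower without overlap. The cKO libraries of this mark differed widely from each other, with an island at 42.2% of all promoters in cKO 1 and 11.3% in cKO 2. The test on regions joined the Gsx2 island with others nearby. It gave 107 and 381 reads in Ctrl against 488 and 235 in cKO, a log2 fold change of 0.94 (SE 0.661, adjusted p = 0.962 by edgeR), and none of 34454 regions passed (0%), with 736 at an unadjusted p under 0.05 and 83 called by DESeq2. The 2 libraries per genotype overlapped in that region. With covered length as an offset, the log2 fold change of the region changed sign, as given in the last section. Gad2 had a promoter covered over 100% by H3K36me2 in cKO 1 and over 0% in the other 3 neurosphere libraries. Its gene body was covered over 0% and 0% in Ctrl against 8.92% and 2.79% in cKO. How many of all gene bodies differ without overlap was not counted, so the gene body values of Gsx2 and Gad2 have no background beside them.

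The same regions were compared between neurospheres and hippocampus over the 8 libraries of a mark, with genotype in the model. For H3K27me3, 3 of the 6 ventral regions were lower in neurospheres at an adjusted p under 0.05, where 21.2% of 2373 regions were lower and 21.3% higher. The Gad2 region held 767, 458, 1077 and 840 reads in the hippocampus libraries (Ctrl 1, Ctrl 2, cKO 1, cKO 2) and 758, 590, 173 and 236 in the neurosphere libraries. These raw counts came from libraries with 1681001 to 5525016 reads in islands in hippocampus and 13195590 to 17025504 in neurospheres. After scaling, the log2 difference was -2.39 (SE 0.333, adjusted p = 0.000599 by edgeR) at Gad2. It was -1.59 (SE 0.218, adjusted p = 0.000569 by edgeR) at Gsx2 and -0.99 (SE 0.188, adjusted p = 0.00283 by edgeR) at Nkx2-1. Lhx6 had 0.53 (SE 0.219, adjusted p = 0.0792, and 0.74 with adjusted p = 0.0105 without hippocampus Ctrl 2, where 18.5% of regions were called higher), Dlx5 and Dlx6 had 0.19 (SE 0.197) and Dlx1 and Dlx2 had -0.15 (SE 0.222) in the same edgeR fit. With covered length as an offset, Gsx2 alone passed, at -0.41 (adjusted p = 0.0431 by edgeR), and Gad2 had -0.20 (adjusted p = 0.261 by edgeR). In that fit 11.8% of the 2373 regions were called lower. Covered length is given for the regions merged within each source, not for the region of all 8 libraries tested here. At Gad2 it was 17.4, 12.2, 21.8 and 16.4 kb in hippocampus and 9.6, 8.4, 3.6 and 6.4 kb in neurospheres. These lengths did not overlap between the sources, but the share of all regions for which this is so was not counted.

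For H2AK119ub1, none of the 5 ventral regions passed in that comparison, where 11.2% of 1555 regions were lower in neurospheres and 9.32% higher. Gsx2 had the lowest p, with a log2 difference of -1.33 (SE 0.450, adjusted p = 0.0525 by edgeR), and without neurosphere Ctrl 2 it passed, at -1.63 (adjusted p = 0.0183 by edgeR), where 14.1% of regions were called lower. With the length offset Lhx6 passed, at 0.32 (adjusted p = 0.0322 by edgeR), where 3.54% of regions were called higher. For H3K36me2 no ventral region had an island in all 8 libraries. Fewer cells with a mark and less of the mark per cell cannot be told apart in such bulk samples, and the 2 sources hold different cells.

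A further 40 genes linked to ventral progenitors and interneurons were set beside the 9. They were not a purely ventral set, and they overlap the lists of other cell types below. Prox1, which the paper used as a marker of granule neurons, was also in the pallial and hippocampal list. Olig2 was also in the oligodendrocyte lineage list. H3K27me3 covered at least 50% of the promoter in all 4 libraries for 21 of the 40 in hippocampus and 18 of the 40 in neurospheres. The median coverage of the list in Ctrl was 77.9% in hippocampus and 90% in neurospheres, against 0% over all promoters. In neurospheres 6 of the 32 that had an H3K27me3 island in any library were lower without overlap in cKO and 2 were higher, beside the 13.3% and 8.54% of all promoters given above. Among the genes without overlap, the largest difference downward in mean coverage was at Gbx2, a homeobox factor, with 100% and 100% in Ctrl against 60% and 0% in cKO. The largest upward among them was at Vip, an interneuron neuropeptide, with 0% and 0% in Ctrl against 24.6% and 35.0% in cKO. For H2AK119ub1 in neurospheres 7 of the 35 with an island were lower and 1 higher, beside 7.78% and 4.41% of all promoters. Sox6, an interneuron transcription factor downstream of Lhx6, had 100% and 100% in Ctrl against 0% and 0% in cKO, and Npy, another neuropeptide, had 97.3% and 97.3% in Ctrl against 100% and 100% in cKO.

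For H3K36me2 in neurospheres Sox6 also had the largest upward difference among the genes of that list without overlap, with 0% and 0% in Ctrl against 100% and 65.1% in cKO, 1 of 2 genes of the 20 with an island that were higher without overlap, beside 4.23% of all promoters. The 1 gene that was lower, beside 5.61% of all promoters, was Foxp2, with 31.3% and 40.0% in Ctrl against 26.3% and 0% in cKO. In hippocampus Ebf1, a factor of striatal neurons, was the 1 gene of 35 with an island that had lower H2AK119ub1 in both cKO libraries, 0% and 70.0% against 72.1% and 100%, beside 1.7% of all promoters. No gene of the 40 was higher or lower without overlap for H3K27me3 or H3K36me2 in hippocampus.

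Lists of other cell types were read the same way, since tissue and cultures can hold other cells. H3K27me3 covered at least 50% in all 4 libraries for 3 of 16 pallial and hippocampal identity genes in hippocampus and 7 of 16 in neurospheres. These counts were 0 of 7 and 0 of 7 for neural progenitor genes, 0 of 5 and 2 of 5 for microglia, 2 of 5 and 1 of 5 for endothelium, and 4 of 5 and 1 of 5 for the oligodendrocyte lineage. Mean coverage by H3K27me3 of the microglia list was 10.2% and 0% in hippocampus Ctrl and 0% and 28.2% in hippocampus cKO. That of the pallial list was 64.2% and 60.7% in neurosphere Ctrl and 60.3% and 48.5% in neurosphere cKO. Islands do not measure expression, and the part of cell composition in the ventral genes' values was not tested.

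Genes elsewhere in the genome with a like pattern were found by the mean absolute difference in promoter coverage over the 24 libraries. The nearest to Lhx6 was Hoxc4, with a difference of 0 percentage points in all 24. The nearest to Dlx6 was Prdm13 (0.0698 points), to Nkx2-1 Foxi3 (0.281), to Dlx5 Fezf1 (0.832) and to Dlx1 Foxa1 (1.28). Dlx2 was nearest to Msx2, at 4.84 points. Among the ventral genes, the nearest match was furthest for Gsx2 (Matn4, 7.25 points) and Gad2 (Kank1, 7.05 points). Gad1 at its gene start was nearest to Uox, at 4.56 points. Libraries are shared by all of these comparisons, and the median difference from all genes was 20.0 points for Gad1 and 47.6 to 68.5 points for the other 8.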

How the data were processed

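H2AK119ub1, H3K27me3 and H3K36me2 ChIP-seq of hippocampus and neurospheres gave 24 libraries with island files; the other 12 of 36 samples were inputs, not analysed here. The authors trimmed reads with cutadapt, aligned them to mm10 with Bowtie2 2.4.5, discarded duplicate reads (samtools) and ran SICER (version not given in the sources used here) on each library against its input, setting the window to 200 bp, the gap to 600 bp and the FDR to 0.01. The deposited value of each island is a raw read count, not normalised by the authors, so it grows with depth and called length, and no total depth is known. Reads carry no molecular identifiers; precision is that of the spread between 2 libraries.

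Coordinates are given from 1. Groups and replicate numbers came from the labels. Promoters (2 kb each side of the start) and gene bodies were taken from GENCODE vM21. The region with the largest overlap of a promoter stood for its gene. Coverage was compared by two-sided exact permutation tests, which cannot go below 0.333 with 2 against 2. Region counts were tested with edgeR 4.0.16 (quasi-likelihood, TMM, R 4.3.3), with Benjamini-Hochberg adjustment over all regions and a threshold of 0.05; standard errors are the log2 fold change over the root of its F. DESeq2 1.42.0 was an alternative. Python 3.11.15 was used with numpy 2.4.6. Interval and count code was tested on simulated data. Alternatives were other windows, starts, island sets, scalings, a replicate block and leaving out each library. Named genes were the 9 members and, from 40 other ventral and GABAergic genes, those with the largest rise and fall without overlap per mark and source. The genes compared for likeness lay over 1 Mb away or on another chromosome. The members, lists and tests were chosen with earlier results of these data known. Lists of pallial, progenitor, microglia, endothelium and oligodendrocyte lineage genes were also read.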

Additional observations from a re-analysis of the deposited data

Results flagged for a closer look

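The H3K27me3 read density at 8 ventral genes, not corrected for library depth, was higher in both cKO than in both Ctrl libraries in hippocampus and lower in both in neurospheres. The mean difference, cKO minus Ctrl, in hippocampus and in neurospheres was 20.7 and -101 reads per kb at Dlx1 and the same at Dlx2, whose neurosphere difference was -101. It was 14.7 and -61.9 reads per kb at Dlx5, and 14.7 and -64.2 at Dlx6. It was 10.7 and -43.3 at Gad2, and 16.2 and -38.6 at Lhx6. It was 10.9 and -74.4 at Nkx2-1, and 18.0 and -34.6 at Gsx2. The difference between the sources in this raw density was not tested. After scaling for library size and covered length, the interaction in edgeR, added after seeing the data, was -0.70 on the log2 scale (SE 0.219, adjusted p = 0.576) at Dlx1 and Dlx2 and -0.41 (adjusted p = 0.684) at Gad2. None of 2373 regions passed in that fit, with 163 at an unadjusted p under 0.05. Groups of 2 libraries were too small for a test of single libraries that stand apart.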

How the results depend on the processing

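Of 180 repeats of the comparisons under other settings, 170 stayed within 1 SD (coverage) or within 1.5 times the number of called regions. Another 3 moved further, 6 gained calls and 1 lost calls. Direction was not part of this rule, so a coverage difference could change sign and still count as kept. The SD came from groups of 2 libraries and could be wide, at 27.3 (Ctrl) and 38.7 points (cKO) for mean hippocampus H2AK119ub1 coverage. The main fit called no ventral region in any genotype comparison, so repeats that also called none counted as kept. The count of 170 therefore says little about stability. Of 597 repeats for single regions or genes, 524 kept their sign and side of the threshold (regions) or stayed within 1 SD (promoter coverage). Of the rest, 43 changed sign, 17 moved further, 11 gained a call and 2 lost one. The mean H3K27me3 promoter difference, cKO minus Ctrl, was -2.50 points in hippocampus and 0.245 with 5 kb each side of the start; in neurospheres it was -3.82 and -1.54 with 1 kb. The neurosphere H3K27me3 gene body difference was 0.0246 points and 0.319 with islands of at least 2 kb. Ventral regions called in neurosphere H3K27me3 rose from 0 to 2 of 6 with the DESeq2 Wald test and to 2 with the length offset. Between sources the length offset gave 1 call in place of 0 for H2AK119ub1 and 1 in place of 3 for H3K27me3. The length offset compares density alone, so covered length no longer counts; the cause of the other changes was not tested.

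Leaving out 1 library at a time gave these mean promoter differences in points. Hippocampus H2AK119ub1 ran from -36.8 to 18.0, H3K27me3 there from -2.78 to -2.22 and H3K36me2 from 0 to 11.1. Neurosphere H2AK119ub1 ran from -24.1 to -10.0, H3K27me3 from -5.42 to -2.22 and H3K36me2 from 11.3 to 21.9. Ventral regions called ranged from 0 to 3 for neurosphere H3K27me3 (3 without cKO 1), 0 to 1 for neurosphere H2AK119ub1 (1 without Ctrl 1), 0 to 1 between sources for H2AK119ub1 (1 without neurosphere Ctrl 2) and 3 to 4 for H3K27me3. Without cKO 1, 2853 of 16288 regions were called for neurosphere H3K27me3, and without Ctrl 1, 567 of 6680 for neurosphere H2AK119ub1. In these fits the lone library of an arm is assumed to vary like the others.

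The numbers of replicates do not establish pairs, since nothing in the labels says that a number marks a shared animal or day. Deviations of same-numbered libraries correlated at 0.327, 0.266 and 0.0155 (hippocampus H2AK119ub1, H3K27me3, H3K36me2) and -0.322, -0.121 and 0.31 (neurospheres). With the replicate number as a replicate block, 0 ventral regions were called in each genotype comparison, and 9 regions in all for hippocampus H3K27me3, against 0 without the block. The crossed pairing, added after seeing the data, called 0 regions for both neurosphere Polycomb marks and 5 for hippocampus H3K27me3.

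Not all of the values below were near 0 in the main fit, where Gsx2 had 0.94 for neurosphere H3K36me2. The H3K27me3 interaction at Nkx2-1 was 0.64 there. The sign of a log2 fold change changed as follows. With the length offset it was 0.038 (Dlx1 and Dlx2) for hippocampus H2AK119ub1, 0.022 (Nkx2-1), 0.049 (Dlx1 and Dlx2) and 0.018 (Dlx5 and Dlx6) for hippocampus H3K27me3, -0.089 (Nkx2-1) and -0.20 (Dlx5 and Dlx6) for neurosphere H3K27me3, and -0.023 (Gsx2) for neurosphere H3K36me2. Between sources it was 0.18 (Nkx2-1), 0.16 (Dlx1 and Dlx2) and 0.18 (Dlx5 and Dlx6) for H2AK119ub1 and 0.41 (Dlx1 and Dlx2) for H3K27me3, and the interaction at Nkx2-1 was -0.0086. With counts allotted to promoters it was 0.18 (Dlx1), 0.024 (Dlx2) and 0.15 (Dlx5) for hippocampus H2AK119ub1, 0.0085 (Dlx1) for hippocampus H3K27me3, 0.043 (Lhx6) for neurosphere H2AK119ub1, and -0.29 (Dlx5), -0.32 (Dlx6) and -0.29 (Nkx2-1) for neurosphere H3K27me3. The block and the crossed block gave -0.011 and -0.011 at Dlx5 and Dlx6 for neurosphere H3K27me3. Leaving out libraries gave -0.29 to 0.26 (Lhx6) and -0.36 to 0.23 (Gsx2) for hippocampus H2AK119ub1; -0.24 to 0.082 (Gad2), -0.65 to 0.096 (Lhx6), -0.62 to 0.11 (Dlx1 and Dlx2), -0.43 to 0.0088 (Gsx2) and -0.58 to 0.041 (Dlx5 and Dlx6) for hippocampus H3K27me3. It gave -0.58 to 0.24 (Dlx5 and Dlx6) for neurosphere H2AK119ub1, -0.29 to 0.035 (Nkx2-1) and -0.29 to -0.0091 (Dlx5 and Dlx6) for neurosphere H3K27me3, and -0.040 to 0.32 (Gad1) for neurosphere H3K36me2. Between sources it gave -0.058 to 0.37 (Lhx6, H2AK119ub1), and the H3K27me3 interaction ran from -0.092 to 0.75 (Lhx6) and -0.72 to 0.034 (Dlx1 and Dlx2). No value whose sign changed passed the threshold.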
